A study of Mus musculus with 8 samples.

Results

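MHC class I heavy chains and B2m were described in primary mouse astrocytes with reduced GSTM1, a cytosolic glutathione S-transferase of the mu class. The members were the 10 genes named for this group, H2-K1, H2-D1, H2-Q4, H2-Q6, H2-Q7, H2-T22, H2-T23, H2-T24, H2-M3 and B2m, of 54146 genes in the deposited tables, and each of them was found and passed the filter on low counts in every fit. The group was chosen by gene family, with H2-Q6 put forward from its measured counts, because its TNF-α induction was seen to be larger in GSTM1 KD astrocytes. Its values are therefore a description without a test, and the difference between the TNF-α responses is given without a test for every member. Cortical glia of neonatal C57BL/6 mice were infected in mixed culture with lentivirus that encoded either an shRNA against Gstm1 (GSTM1 KD) or a non-silencing shRNA (control KD). Both arms then underwent puromycin selection, shaking and removal of CD11b-positive cells, and were left unstimulated (basal) or stimulated for 6 h with 50 ng/ml of TNF-α. The knockdown thus took place in the mixed culture before astrocytes were enriched, and control KD cells carried the same kind of virus and the same selection. Total RNA was sequenced in 2 libraries from each of the 4 groups, which the study calls biological replicates.

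Class I molecules display peptides from inside the cell to CD8 T cells and natural killer cells. A polymorphic heavy chain pairs with B2m, the invariant light chain, in the endoplasmic reticulum. The pair is then loaded with peptides that were cut by the proteasome and pumped in by the TAP transporter. In the mouse, H2-K1 and H2-D1 encode the classical heavy chains, whereas the H2-Q, H2-T and H2-M genes encode mostly nonclassical ones. Resting brain cells are known for low class I levels, and NF-κB, interferon regulatory factors and the transactivator NLRC5 are known to act at class I promoters.

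The 8 libraries held between 17349676 and 34434633 expected counts, and Gstm1 itself followed the labels. Its basal counts were 8153 and 9644 in control KD against 676 and 626 in GSTM1 KD, and those after TNF-α were 4851 and 6492 against 527 and 405. The 10 astrocyte markers were all detected, with a summed level between 3229 and 9601 CPM (counts scaled to the library total after TMM adjustment). The basal range was 3229 to 7203 CPM for control KD against 6567 to 9601 CPM for GSTM1 KD, and the stimulated range was 3315 to 7335 CPM against 6721 to 9513 CPM, so the arms overlapped. The 10 microglia markers summed to between 45.2 and 54.1 CPM, and the defining marker P2ry12 had between 0 and 2 counts. Itgam, which encodes the CD11b used for depletion, had 61 and 35 counts in replicate 1 of the control KD basal and TNF-α groups and between 0 and 8 in the other libraries. Oligodendrocyte lineage markers summed to between 577 and 742 CPM in control KD and between 466 and 535 CPM in GSTM1 KD. Olig2 was called lower in GSTM1 KD basally (log2 -0.85 ± 0.13) and after TNF-α (log2 -1.14 ± 0.10), with edgeR adjusted p of 0.0251 and 0.0101, and Olig1 after TNF-α (log2 -0.44 ± 0.11, edgeR adjusted p 0.0497). Of the 10 astrocyte markers, S100b was called lower in GSTM1 KD in each state (log2 -1.44 ± 0.23 and -1.71 ± 0.38, edgeR adjusted p 0.0269 and 0.0387), and no other was called, although 7 of 10 had fitted values above 0 basally and 6 after TNF-α. Among these, Aldh1l1 had 1.05 ± 0.46 and 1.22 ± 0.42, Glul 0.78 ± 0.23 and 0.88 ± 0.24 and Slc1a2 0.67 ± 0.31 and 0.49 ± 0.29 on the log2 scale. Endothelial markers summed to between 17.5 and 18.7 CPM against between 9.14 and 12.2 CPM with GSTM1 KD basally, and to between 20.2 and 25.4 CPM against between 12.7 and 17.6 CPM after TNF-α. None of the 3 tested was called, with Flt1 at -0.91 ± 0.27 and -0.76 ± 0.34, Cdh5 at -1.65 ± 0.52 and -1.41 ± 0.53 and Kdr the other way at 1.39 ± 0.49 and 1.25 ± 0.35, and Cldn5 was at 0 in all 8 libraries. Of the pericyte and fibroblast markers, Col1a2 was lower with GSTM1 KD basally and after TNF-α (log2 -1.13 ± 0.21 and -0.99 ± 0.18, edgeR adjusted p 0.0352 and 0.025), and Pdgfrb was higher after TNF-α (log2 0.81 ± 0.17, edgeR adjusted p 0.0337). The choroid plexus marker Folr1 was higher with GSTM1 KD (log2 2.67 ± 0.59 and 2.78 ± 0.56, edgeR adjusted p 0.0476 and 0.033), at between 3 and 17 counts in control KD libraries against 35 to 55, and passed the count filter only through the GSTM1 KD libraries, which favoured its call. The other choroid plexus and ependymal markers did not share this. Ttr had between 0 and 9 counts, Kl between 1 and 5 and Tmem212 between 0 and 2. Foxj1 was not called between knockdowns (log2 0.01 basally and 0.30 after TNF-α). With TNF-α, Pdgfrb fell in control KD (log2 -1.28 ± 0.22, edgeR adjusted p 0.0278) and Olig2 in GSTM1 KD (log2 -0.67 ± 0.12, edgeR adjusted p 0.031). The part of these cell-type markers in the differences given here was not tested, and in bulk RNA fewer cells of a type and less RNA per cell cannot be told apart. Counts within each group differed between the replicates by more than sampling noise.

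Per transcript length, B2m was the most abundant member in every group. In TPM, a scale that allows for transcript length, control KD basal astrocytes held B2m at 558 ± 62.7 (SD, n = 2, as for every TPM value). H2-K1 followed at 158 ± 29.9 and H2-D1 at 135 ± 10.9, and these 2 overlapped between replicates. Then came H2-T22 at 48.8 ± 4.21, H2-Q4 at 29.8 ± 2.63 and H2-T23 at 13.8 ± 6.7 TPM, none of which overlapped its neighbour. The lowest were H2-M3 at 3.9 ± 0.453, H2-Q7 at 3.22 ± 0.424, H2-Q6 at 2.68 ± 0.552 and H2-T24 at 1.85 ± 0.806 TPM, of which H2-Q7 overlapped H2-Q6 and H2-Q6 overlapped H2-T24. In GSTM1 KD basal cells H2-Q6 stood last, at 1.07 ± 0.212 TPM, below H2-T24 at 1.88 ± 0.46. After TNF-α the H2-Q genes moved up this order. In control KD, H2-Q4 at 103 ± 6.13 TPM passed H2-T22 at 65.6 ± 2.01, and H2-Q6 at 15.1 ± 0.474 passed H2-Q7 at 10.7 ± 2.9 and H2-M3 at 6.65 ± 1.5. In GSTM1 KD after TNF-α, H2-Q4 at 116 ± 24.4 and H2-T22 at 111 ± 29.1 TPM overlapped.

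Apart from B2m on chromosome 2, the members lie within the H2 complex on mouse chromosome 17 (GRCm38, GENCODE vM21 annotation). H2-K1 (chr17:33996017-34000347, minus strand) lies apart from the others. It is followed on the plus strand by H2-D1 (chr17:35262730-35267499), H2-Q4 (chr17:35379617-35385290), H2-Q6 (chr17:35424850-35430055) and H2-Q7 (chr17:35439155-35443773). H2-T24 (chr17:36005695-36020560), H2-T23 (chr17:36029773-36032855) and H2-T22 (chr17:36037128-36042747) lie on the minus strand, and H2-M3 (chr17:37270220-37274484) on the plus strand. B2m spans chr2:122147686-122153083 on the plus strand. All 10 are annotated as protein coding. On the opposite strand, Gm11131 overlaps H2-Q4, A930015D03Rik overlaps the 3 H2-T genes and Patl2 overlaps B2m. Matched by gene ID, Patl2 had 0 counts in all 8 libraries, A930015D03Rik between 22 and 40, and Gm11131 between 8 and 20 in basal and between 27 and 57 in stimulated libraries. The library kit keeps strand, but whether counting used it is not given in the sources used here.

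Since the classical and H2-Q heavy chains had higher levels after TNF-α in both knockdowns, the members' promoters are shown, from the RefSeq promoter table (GRCm38.p6). It holds 9 of the 10 members, H2-T24 being the exception. Each window covers 120 bases of the 250 bases before to 50 bases after the annotated start, and begins 10 bases before the first match to an NF-κB, ISRE or interferon element pattern. Each is written 5′ to 3′ along the gene's own strand, with capitals for every base inside a match on either strand. The patterns were the 10-base NF-κB consensus, the interferon-stimulated response element (ISRE: GAAA, any 2 bases, GAAA), the X2 box TGACGC, the CCAAT box, and GTTTCACTT, a 9-base interferon element that was added after these sequences had been read. The windows lie at chr17:34000349-34000468 (minus), chr17:35262913-35263032 (plus), chr17:35379433-35379552 (plus), chr17:35424667-35424786 (plus), chr17:35439012-35439131 (plus), chr17:36042846-36042965 (minus), chr17:36032716-36032835 (minus), chr17:37270098-37270217 (plus) and chr2:122147538-122147657 (plus).
H2-K1: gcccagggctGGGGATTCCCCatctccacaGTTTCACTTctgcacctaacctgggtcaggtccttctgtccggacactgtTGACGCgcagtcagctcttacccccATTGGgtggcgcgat
H2-D1: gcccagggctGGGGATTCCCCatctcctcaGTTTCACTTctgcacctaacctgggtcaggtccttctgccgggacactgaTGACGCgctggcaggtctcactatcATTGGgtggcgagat
H2-Q4: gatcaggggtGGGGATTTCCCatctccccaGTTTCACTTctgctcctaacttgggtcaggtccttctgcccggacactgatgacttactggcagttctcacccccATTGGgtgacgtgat
H2-Q6: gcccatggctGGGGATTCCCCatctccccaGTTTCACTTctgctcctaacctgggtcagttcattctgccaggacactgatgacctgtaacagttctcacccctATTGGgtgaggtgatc
H2-Q7: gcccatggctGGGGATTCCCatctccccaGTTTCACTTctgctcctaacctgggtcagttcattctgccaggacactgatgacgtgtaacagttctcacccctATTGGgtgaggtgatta
H2-T22: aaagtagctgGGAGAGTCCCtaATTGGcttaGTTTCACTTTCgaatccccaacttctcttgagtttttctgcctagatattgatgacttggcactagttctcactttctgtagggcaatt
H2-T23: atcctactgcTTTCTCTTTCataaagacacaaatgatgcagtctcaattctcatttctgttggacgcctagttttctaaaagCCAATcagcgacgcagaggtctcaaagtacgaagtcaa
H2-M3: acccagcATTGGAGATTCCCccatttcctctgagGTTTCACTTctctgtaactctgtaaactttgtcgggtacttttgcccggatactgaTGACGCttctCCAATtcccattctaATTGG
B2m: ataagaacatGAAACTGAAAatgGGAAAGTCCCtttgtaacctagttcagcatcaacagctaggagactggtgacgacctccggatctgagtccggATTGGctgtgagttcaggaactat

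The NF-κB pattern was found in 8 of these 9 promoters, all but that of H2-T23, and in 11.2% of the 32851 promoters in the table. GTTTCACTT stood just downstream of it in 7 of 9, all but H2-T23 and B2m, and was present in 0.399% of all promoters. The ISRE pattern was found in B2m, H2-T22 and H2-T23, against 3.44% of all promoters, and in H2-T22 it overlaps GTTTCACTT. Counted from the start, GTTTCACTT began at position -91 in H2-K1, -102 in H2-M3 and -114 in H2-Q7, and at -151, -154 and -153 in H2-D1, H2-Q4 and H2-Q6. It lay farthest upstream in H2-T22, at -192. The X2 box TGACGC was matched upstream in H2-K1, H2-D1 and H2-M3 and downstream of the start in H2-Q4 (7.4% of all promoters), and CCAAT in all 9 (37.4%). In H2-M3 a CCAAT match overlaps the NF-κB match. The heavy-chain promoters are related by descent, so these counts are not independent of each other. A match of letters is a description and no evidence of binding.

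**Figure D1:**
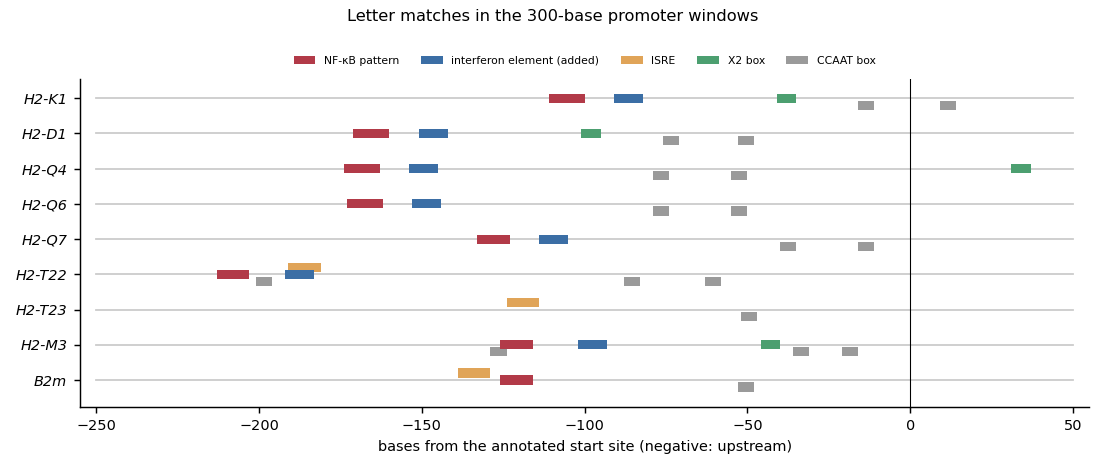
Position of each letter match (bars, drawn to their length in bases) from the annotated start site (x axis, bases, negative upstream) in the promoters of 9 members. In 7 members an NF-κB match is followed by GTTTCACTT (interferon element); H2-T23 has an ISRE match alone upstream of CCAAT, and B2m an ISRE match before its NF-κB match.

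The fitted TNF-α response was largest for the 3 H2-Q members in both knockdowns. In control KD, 4 of the 9 members other than H2-Q6 rose (H2-K1, H2-D1, H2-Q4 and H2-Q7) and none fell, where 2.1% of 15332 genes tested rose and 0.528% fell (edgeR quasi-likelihood test, Benjamini-Hochberg adjusted p under 0.05 over all genes). In GSTM1 KD, 5 of 9 rose, the same 4 genes and H2-T22, and none fell, against 2.35% of genes that rose and 0.294% that fell. The members were chosen with such results known, so these shares describe them and do not test them. The median log2 fold change of the 10 members was 0.81 in control KD against 1.16 in GSTM1 KD, against -0.02 and -0.01 over all genes.

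H2-K1, a classical heavy chain, stood at 107 and 140 CPM in the control KD basal libraries (replicate 1, then 2, as in all pairs of values) and at 255 and 323 CPM after TNF-α. In GSTM1 KD it stood at 133 and 143 CPM basally and at 352 and 308 CPM after TNF-α. Every stimulated library lay above every basal one. The log2 fold change was 1.23 ± 0.17 (SE, n = 2 a group, as for every fitted change) in control KD and 1.26 ± 0.17 in GSTM1 KD, with edgeR adjusted p of 0.0127 and 0.0105.

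H2-D1, the other classical heavy chain, had 128 and 145 CPM in control KD basal cells and 226 and 259 CPM after TNF-α. In GSTM1 KD its levels were 132 and 123 CPM basally and 269 and 238 CPM after TNF-α. Stimulated and basal libraries again did not overlap. The log2 rise was 0.83 ± 0.12 in control KD against 0.99 ± 0.12 in GSTM1 KD, with edgeR adjusted p of 0.0141 and 0.00604. The 2 classical genes have nearly the same printed promoter stretch around the NF-κB match and GTTTCACTT.

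H2-Q4 encodes a nonclassical heavy chain. It had 27.1 and 29.7 CPM in control KD basal cells and 20.5 and 17.5 CPM in GSTM1 KD basal cells. After TNF-α it reached 95.1 and 103 CPM in control KD, and 126 and 91.7 CPM in GSTM1 KD. The GSTM1 KD basal libraries were lowest, and the 2 stimulated groups overlapped. The log2 fold change was 1.81 ± 0.16 in control KD against 2.52 ± 0.17 in GSTM1 KD, with edgeR adjusted p of 0.00309 and 0.000896.

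H2-Q7 encodes a chain of the Qa-2 antigen, which is anchored in the membrane by a lipid. Its basal levels were 2.37 and 2.77 CPM in control KD and 1.89 and 1.25 CPM in GSTM1 KD. After TNF-α it had 7.83 and 10.9 CPM in control KD and 14.4 and 8.27 CPM in GSTM1 KD. Basal and stimulated libraries were apart in both arms, while the 2 stimulated arms overlapped. The log2 rise was 1.86 ± 0.34 (edgeR adjusted p 0.0371) in control KD and 2.84 ± 0.36 (edgeR adjusted p 0.00836) in GSTM1 KD.

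H2-Q6, a close relative of H2-Q7 that also encodes Qa-2 chains, had the largest fitted rise of the members in both arms. Its basal counts were low, 107 and 63 in control KD against 26 and 19 in GSTM1 KD. This corresponded to 3.02 and 2.46 CPM, and to 1.12 and 0.951 CPM. After TNF-α it stood at 13.6 and 12.4 CPM in control KD and at 24.2 and 14.9 CPM in GSTM1 KD. The GSTM1 KD libraries were thus below both control KD libraries in the basal state and above both after TNF-α. The fitted rise was 4.73-fold in control KD (log2 2.24 ± 0.26) and 18.8-fold in GSTM1 KD (log2 4.23 ± 0.30).

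H2-T22, whose product is known as a ligand of some γδ T cell receptors, had 40.5 and 44.1 CPM in control KD and 44.8 and 42.3 CPM in GSTM1 KD basal cells. After TNF-α it reached 56.7 and 59.9 CPM in control KD and 117 and 79.1 CPM in GSTM1 KD. Here the 4 groups fell into 3 levels, with both basal groups together, control KD stimulated above them and GSTM1 KD stimulated highest. The log2 rise was 0.46 ± 0.17 (edgeR adjusted p 0.307) in control KD and 1.17 ± 0.17 (edgeR adjusted p 0.0157) in GSTM1 KD. A call in 1 arm alone does not show that the arms differ, and that difference was not tested.

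The other 4 members had fitted values above 0 in both arms without passing the threshold. H2-T23 encodes Qa-1, which shows leader peptides of other class I chains to natural killer cell receptors, and stood at 6.67 and 13.4 CPM in control KD basal cells and 14.8 and 19.9 CPM after TNF-α (log2 0.79 ± 0.34, edgeR adjusted p 0.399). In GSTM1 KD it had 12.7 and 13.6 CPM basally and 34.2 and 23.9 CPM after TNF-α (log2 1.15 ± 0.34, edgeR adjusted p 0.188). Its 2 control KD basal libraries lay far apart.

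H2-M3, which presents N-formylated peptides, had 3 and 2.5 CPM in control KD basal cells and 3.96 and 5.53 CPM after TNF-α. In GSTM1 KD it had 3.86 and 3.1 CPM basally and 9 and 5.8 CPM after TNF-α, with log2 changes of 0.78 ± 0.30 and 1.09 ± 0.30 in the control KD and GSTM1 KD arms. Stimulated and basal libraries did not overlap in either arm. H2-T24 ran from 1.47 to 2.74 CPM in control KD basal cells, where it overlapped its stimulated values of 2.58 and 2.59 CPM, and from 1.67 and 2.4 CPM to 3.51 and 3.73 CPM in GSTM1 KD. The fitted changes of H2-T24 were 0.31 ± 0.35 and 0.83 ± 0.35.

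B2m had 191 and 218 CPM in control KD basal cells and 246 and 289 CPM after TNF-α. In GSTM1 KD it had 210 and 204 CPM basally and 354 and 276 CPM after TNF-α. The stimulated libraries were above the basal ones in both arms, by 0.39 ± 0.15 and 0.61 ± 0.15 on the log2 scale (edgeR adjusted p 0.316 and 0.1). Of the 9 members other than H2-Q6, 8 were higher in both stimulated libraries than in both basal ones in control KD, and 9 in GSTM1 KD. Over all genes tested, 16.2% were likewise higher and 18.3% lower in control KD, against 22.4% and 22.2% in GSTM1 KD.

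**Figure D2:**
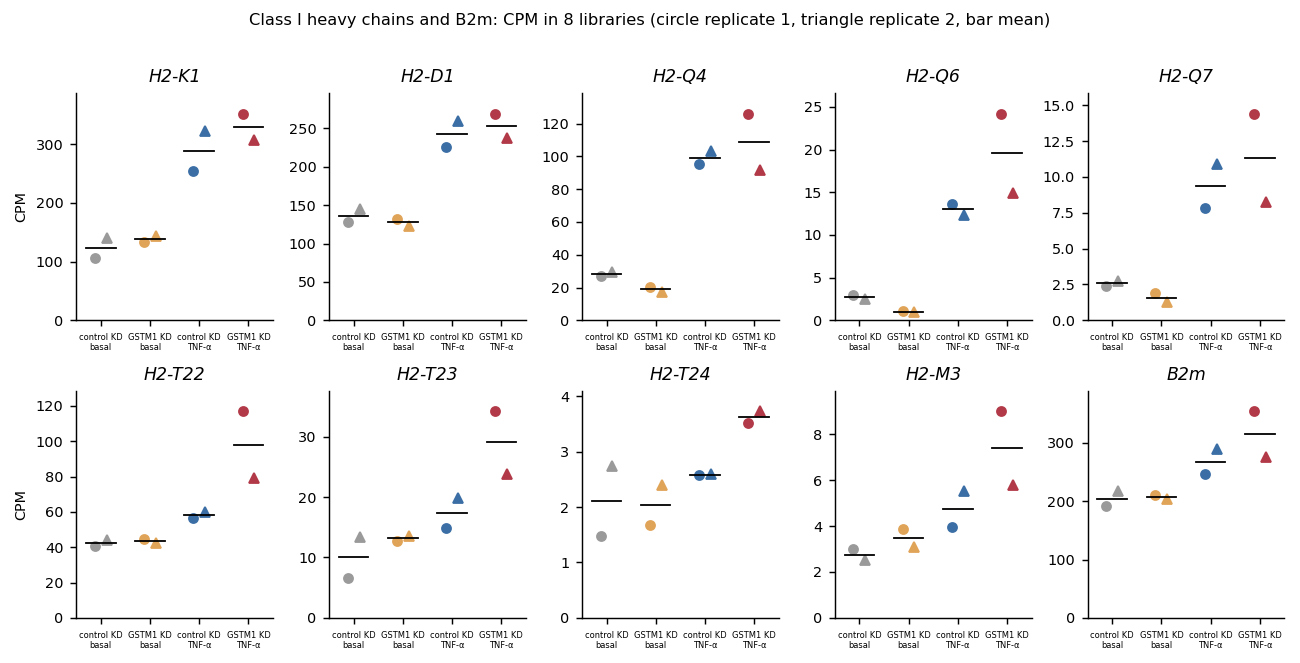
CPM of each member (y axis, linear from 0) in the 8 libraries, by group on the x axis, with circles for replicate 1, triangles for replicate 2 and a bar at the mean of 2. Basally, both GSTM1 KD libraries lie below both control KD libraries for H2-Q4, H2-Q6 and H2-Q7, as for 31.2% of all genes tested. H2-Q4 and H2-Q7 did not pass the edgeR threshold there, and H2-Q6 was not tested. After TNF-α, H2-Q4 is at 126 and 91.7 CPM against 95.1 and 103 CPM in control KD. Replicate 1 is the higher of the stimulated GSTM1 KD libraries in 9 of 10 members.

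These calls rested on few libraries. Without control KD basal replicate 1, control KD kept 2 of its 4 calls, and without control KD TNF-α replicate 2 it kept 1, where calls over all genes went from 403 to 295 and 182. With any 1 library left out, the fitted rise in control KD was 1.04 to 1.44 for H2-K1, 0.74 to 0.93 for H2-D1 and 1.74 to 1.88 for H2-Q4. H2-Q7 was not called in control KD when any 1 of the 4 control KD or the 2 GSTM1 KD basal libraries was left out, with fitted values of 1.62 to 2.08. In GSTM1 KD, 1 call remained without either basal library of that arm and 3 without replicate 1 of its stimulated group, where calls over all genes went from 406 to 83, 74 and 167. H2-Q4 held its call under each of these omissions in both arms. When control KD was fitted on its own 4 libraries, H2-Q4 was the 1 member called, and with offsets for effective length H2-Q7 was not called there (log2 1.75).

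Heavy-chain TPM stood higher beside B2m TPM in stimulated than in basal libraries, although B2m itself passed the threshold in neither arm. The summed TPM of the 9 heavy chains divided by that of B2m was 0.698 and 0.723 in control KD against 0.7 and 0.703 in GSTM1 KD basal cells. After TNF-α the ratio was 1.14 and 1.14 in control KD against 1.11 and 1.17 in GSTM1 KD. All 4 stimulated libraries lay above all 4 basal ones, and the knockdowns overlapped within each state. The ratio was not tested.

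The make-up of the heavy chains shifted as well. H2-K1 and H2-D1 together made up between 66.1% and 75.9% of heavy-chain TPM in the 8 libraries. The share of H2-Q4, H2-Q6 and H2-Q7 was 9.48% and 8.61% in control KD basal cells and 6.33% and 5.27% in GSTM1 KD basal cells. It was between 13.8% and 16.1% in the 4 stimulated libraries. H2-K1 stood to H2-D1 as 1.08 and 1.26 to 1 in control KD basal cells and as 1.48 and 1.64 to 1 after TNF-α. With GSTM1 KD these were 1.3 and 1.56 to 1 basally and 1.69 and 1.68 to 1 after TNF-α. The share of H2-T22, H2-T23, H2-T24 and H2-M3 after TNF-α was 12.1% and 11.7% in control KD against 17.8% and 15% in GSTM1 KD, which did not overlap. Basally it was 16.8% and 17.5% against 19.1% and 18.8%, which did not overlap either.

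**Figure D3:**
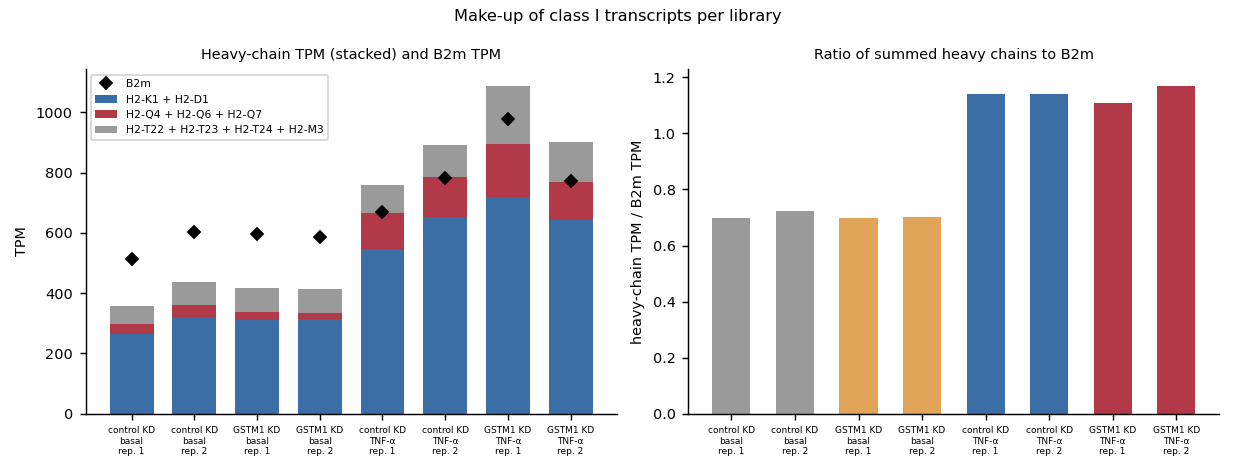
Left, TPM of 3 groups of heavy chains (stacked bars) and of B2m (diamonds) in each of the 8 libraries. Right, the ratio of summed heavy-chain TPM to B2m TPM, which is between 0.698 and 0.723 in basal and between 1.11 and 1.17 in stimulated libraries.

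In the basal state, the fitted differences between GSTM1 KD and control KD were lowest for the 3 H2-Q members. None of the 9 members other than H2-Q6 passed the edgeR threshold, where 4.6% of 14899 genes were higher and 5.62% lower in GSTM1 KD. One, H2-Q4, had an unadjusted p under 0.05 (log2 -0.58 ± 0.15, edgeR p 0.00856, adjusted p 0.0643), and DESeq2 called that 1 member lower (adjusted p 0.0305), with 1377 of 24716 genes lower in all. With the replicate number as a block, edgeR also called H2-Q4 alone, in a fit where the number of genes called rose as well. H2-Q7 had -0.70 ± 0.34 and H2-Q6 -1.41 ± 0.32. Of the 9 members, H2-Q4 and H2-Q7 had both GSTM1 KD libraries below both control KD libraries, as did H2-Q6, where 31.2% of all genes tested were placed in this way and 32.3% the other way. H2-M3 was above in both, with a log2 value of 0.34 ± 0.28, and the remaining 6 overlapped. That is no larger a share of members than of all genes. H2-K1 had 0.16 ± 0.16, H2-D1 -0.11 ± 0.12, H2-T22 0.04 ± 0.11, H2-T23 0.39 ± 0.34, H2-T24 -0.04 ± 0.42 and B2m 0.01 ± 0.12. The median over the 10 members was -0.01, and that over all genes -0.002. Without control KD basal replicate 1, the library with most Itgam counts, H2-Q4 was called lower (log2 -0.64) in a fit that called 8.41% of all genes lower, and H2-K1, H2-T22, H2-T23 and B2m had values of -0.03, -0.02, -0.04 and -0.08. Without control KD basal replicate 2, 3 members were called, H2-K1 (log2 0.36) and H2-T23 (log2 0.97) higher and H2-Q4 (log2 -0.52) lower, in a fit that called 34.2% of all genes, so 3 of 9 is near the background.

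After TNF-α, the largest fitted differences between GSTM1 KD and control KD were those of H2-T22, H2-T23 and H2-M3. None of the 9 members passed the edgeR threshold, where 7.26% of 14593 genes were higher and 8.92% lower in GSTM1 KD. An unadjusted p under 0.05 was found for 2, H2-T22 (log2 0.73 ± 0.19, edgeR p 0.0108, adjusted p 0.0585) and H2-T23 (log2 0.73 ± 0.23, edgeR p 0.0221, adjusted p 0.0862). DESeq2 called both higher (adjusted p 0.00773 and 0.0362), with 1292 of 24134 genes higher in all. With the replicate number as a block, edgeR called 2 of the 9 members, in a fit where the number of genes called also rose. H2-M3 had 0.63 ± 0.31, H2-Q6 0.56 ± 0.26 and H2-T24 0.46 ± 0.26. H2-Q7 at 0.26 ± 0.32, B2m at 0.21 ± 0.16, H2-K1 at 0.17 ± 0.15, H2-Q4 at 0.11 ± 0.17 and H2-D1 at 0.04 ± 0.12 were nearer 0. Both GSTM1 KD libraries lay above both control KD libraries in 4 of the 9 (H2-T22, H2-T23, H2-T24 and H2-M3), as in H2-Q6, and the groups overlapped in the other 5. The same placing was found for 34.7% of all genes tested and the opposite one for 31.9%, and nothing is read from this count of members. The median over the 10 members was 0.36.

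Replicate 1 of the stimulated GSTM1 KD group was the higher replicate for 9 of 10 members, H2-T24 being the exception, whereas in the stimulated control KD group replicate 1 was higher for 1 of 10. Without that GSTM1 KD library, the difference from control KD after TNF-α was 0.18 for H2-Q6, -0.13 for H2-Q4, -0.19 for H2-Q7 and -0.04 for H2-D1, and it fell to 0.43 for H2-T22, 0.45 for H2-T23 and 0.28 for H2-M3. Without control KD TNF-α replicate 1, H2-D1 also had a value below 0, of -0.05. Without control KD TNF-α replicate 2, 2 members were called higher, H2-T22 (log2 0.77) and H2-T23 (log2 0.95), in a fit that called 16.7% of all genes higher and 16.2% lower.

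The fitted difference of the TNF-α responses, GSTM1 KD minus control KD, was above 0 for each of the 9 members other than H2-Q6, with a median of 0.35 on the log2 scale (0.44 with H2-Q6) against 0.02 over all genes, of which 54.7% were above 0. H2-Q6 had 1.99 ± 0.39 and H2-Q7 0.98 ± 0.49. H2-Q4 and H2-T22 each had 0.71, with SE of 0.23 and 0.24. The others were H2-T24 at 0.52 ± 0.49, H2-T23 at 0.35 ± 0.47, H2-M3 at 0.31 ± 0.42, B2m at 0.22 ± 0.20, H2-D1 at 0.17 ± 0.16 and H2-K1 at 0.03 ± 0.24. The members with a difference of 0.7 or more were of 2 kinds. For the H2-Q genes, the fitted value of GSTM1 KD was below that of control KD basally. After TNF-α it was no more than 0.56 above that of control KD. Basally, H2-Q4 and H2-Q7 had no edgeR call, and H2-Q6 was not tested. For H2-T22, the basal difference was 0.04 and the stimulated one 0.73. Leaving out replicate 1 of the stimulated GSTM1 KD group gave 1.59 for H2-Q6, 0.52 for H2-Q7, 0.46 for H2-Q4, 0.39 for H2-T22 and -0.05 for H2-M3, and leaving out replicate 2 gave 2.29 for H2-Q6. Without control KD basal replicate 2, H2-K1 had -0.19 and H2-T23 -0.24. The median with H2-Q6 was 0.77 without control KD basal replicate 1 and 0.23 without replicate 1 of the stimulated GSTM1 KD group.

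**Figure D4:**
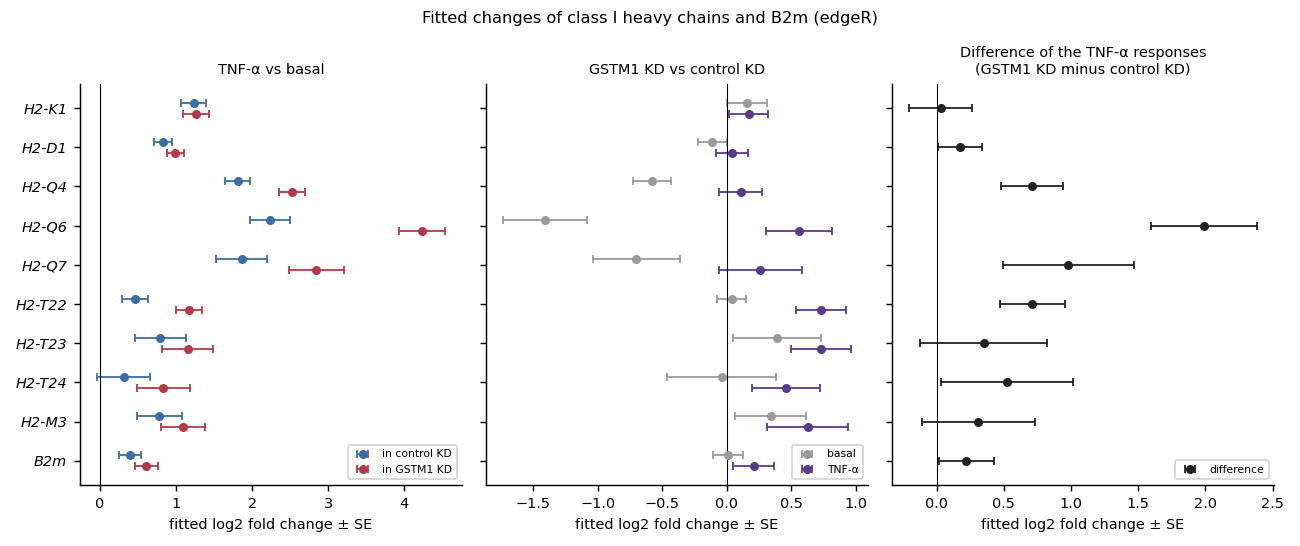
Fitted log2 fold change with SE (points and bars) for each member. Left, TNF-α against basal; middle, GSTM1 KD against control KD in each state; right, the difference of the TNF-α responses, largest for H2-Q6 at 1.99 and smallest for H2-K1 at 0.03.

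Class I genes are near copies of one another, and reads can be divided among them. Of all 100-base stretches of H2-Q6 transcripts, 13% also occur in a transcript of another gene, 8.36% in H2-Q7. These are shares of sequence, not of counts. The share was 12% for H2-Q7, 14.1% for H2-Q4, where 11.8% came from the antisense Gm11131, and 31.5% for H2-T22, where 24% came from the antisense A930015D03Rik and 6.92% from H2-T10. The counts assigned to these 2 antisense genes were low beside 349 to 2725 for H2-Q4 and 844 to 2531 for H2-T22. For H2-K1, H2-D1 and H2-T23 the sequence share was 1.16%, 3.59% and 3.15%, and for H2-T24, H2-M3 and B2m it was 0. With 50-base stretches it was 35% for H2-Q6, 26.5% for H2-Q7, 36.4% for H2-Q4 and 53.5% for H2-T22. The split of counts between H2-Q6 and H2-Q7 is uncertain. Their TPM ratio was 1.05 and 0.651 in control KD against 0.5 and 0.526 in GSTM1 KD basal cells, and 1.8 and 1.17 in control KD against 1.68 and 1.84 in GSTM1 KD after TNF-α.

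With all 8 H2-Q genes summed before the fit, the log2 difference of the TNF-α responses was 0.84 ± 0.25, against 1.99 for H2-Q6 alone. The summed H2-Q genes stood at 32.9 and 35.1 CPM in control KD and 23.9 and 19.9 CPM in GSTM1 KD basal cells, and at 119 and 129 CPM against 168 and 118 CPM after TNF-α. Their fitted difference between knockdowns was -0.63 ± 0.14 basally and 0.18 ± 0.18 after TNF-α. The 6 H2-T genes summed had 0.07 ± 0.12 basally and 0.70 ± 0.19 after TNF-α. All 30 class I heavy-chain genes summed had -0.02 ± 0.13 and 0.20 ± 0.16. Most other class I genes of the complex were hardly detected. Of 21 matched by symbol, 3 passed the filter in the fit of all libraries, and H2-Q5 had between 3 and 9 counts in basal libraries and between 39 and 82 after TNF-α (log2 3.49 ± 0.45 and 3.86 ± 0.47). It was the 1 of 3 called in each arm, but passed the filter only through stimulated libraries, which favoured its call. H2-Q5 shares 3.5% of the 100-base stretches of H2-Q7. H2-T10 and H2-K2 were not called where tested. H2-T10 had log2 TNF-α responses of 0.41 in control KD and 1.54 in GSTM1 KD. Its differences between knockdowns were -0.93 ± 0.36 basally and 0.18 ± 0.365 after TNF-α, so it too was lower in GSTM1 KD basally. H2-K2 had responses of 2.74 and 3.76, and passed the filter only through stimulated libraries.

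Of 13 genes that supply and load class I peptides, 7 rose after TNF-α in control KD, 8 rose in GSTM1 KD, and none fell, where 2.1% and 2.35% of all genes tested rose. The medians were 1.28 and 1.57 on the log2 scale. The 7 were the immunoproteasome subunits Psmb8 and Psmb10, the proteasome activator Psme2, the transporter subunits Tap1 and Tap2, and Tapbp and Tapbpl, which load and edit peptides, and GSTM1 KD added the immunoproteasome subunit Psmb9. Tap1 stood at 36.3 and 35.9 CPM in control KD and 42.4 and 41.1 CPM in GSTM1 KD basal cells, and at 89.8 and 106 CPM against 208 and 145 CPM after TNF-α. It was the 1 gene of this list called between knockdowns after TNF-α, higher in GSTM1 KD (log2 0.82 ± 0.20, edgeR adjusted p 0.0456), where 7.26% of all genes were. In the basal state the 1 call was Erap1, which trims peptides, higher in GSTM1 KD (log2 1.09 ± 0.22, edgeR adjusted p 0.0389), where 4.6% of all genes were. Calr, Canx and Pdia3, general folding factors of the endoplasmic reticulum, had TNF-α responses between 0.01 and 0.14.

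Most genes that drive class I transcription were not called between the knockdowns. Of 12 described here, 4 rose after TNF-α in control KD (Irf1, Rfx5, Rela and Nfkb1) and 6 in GSTM1 KD (the same 4 with Irf2 and Nlrc5), and none fell, against the same 2.1% and 2.35% of all genes. Between knockdowns, 1 was called lower in GSTM1 KD basally, where 5.62% of all genes were, and 1 higher and 2 lower after TNF-α, where 7.26% and 8.92% were. Irf2, an interferon regulatory factor, had 29.8 and 34.3 CPM in control KD against 36.9 and 37.4 CPM in GSTM1 KD basal cells. After TNF-α it had 45.8 and 61.2 CPM in control KD against 93.9 and 79.1 CPM in GSTM1 KD. Irf2 was higher in GSTM1 KD after TNF-α (log2 0.67 ± 0.17, edgeR adjusted p 0.0498). Rela, the NF-κB subunit p65, was called lower with GSTM1 KD before and after stimulation, with log2 differences of -0.61 ± 0.10 and -0.76 ± 0.10 (edgeR adjusted p 0.027 and 0.0152).

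Nfya, a subunit of the CCAAT-binding factor, was lower in GSTM1 KD after TNF-α (log2 -0.51 ± 0.11, edgeR adjusted p 0.0351). Nlrc5, the class I transactivator, had 2.2 and 1.8 CPM in control KD and 2.14 and 1.7 CPM in GSTM1 KD basal cells. After TNF-α it reached 5.21 and 4.99 CPM in control KD and 14.4 and 7.52 CPM in GSTM1 KD, a difference of 1.09 ± 0.35 that did not pass the threshold (edgeR adjusted p 0.0856). Irf1, which binds ISRE sequences, rose in both arms, from between 18.6 and 22.7 CPM to between 169 and 211 CPM (log2 3.11 ± 0.14 and 3.22 ± 0.15). Nfkb1, the NF-κB subunit p105, had 113 and 198 CPM against 94.5 and 95.2 CPM after TNF-α (log2 -0.74 ± 0.25, edgeR adjusted p 0.101). Rfx5 and Rfxap had differences of 0.10 or less in size after TNF-α. Calls between knockdowns depended on the libraries of a state, among them those of the GSTM1 KD group. With replicate 1 and then replicate 2 of that group left out, edgeR called 1 and 3 genes in all in the basal state and 0 and 94 after TNF-α, with 3275 genes at an unadjusted p under 0.05 where it called 0. With control KD replicate 1 and then 2 left out, it called 2181 and 5256 genes basally and 2703 and 5028 after TNF-α. The differences of Rfxank, Nfyb, Nfyc and Creb1 after TNF-α were -0.28, -0.02, 0.32 and 0.18.

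**Figure D5:**
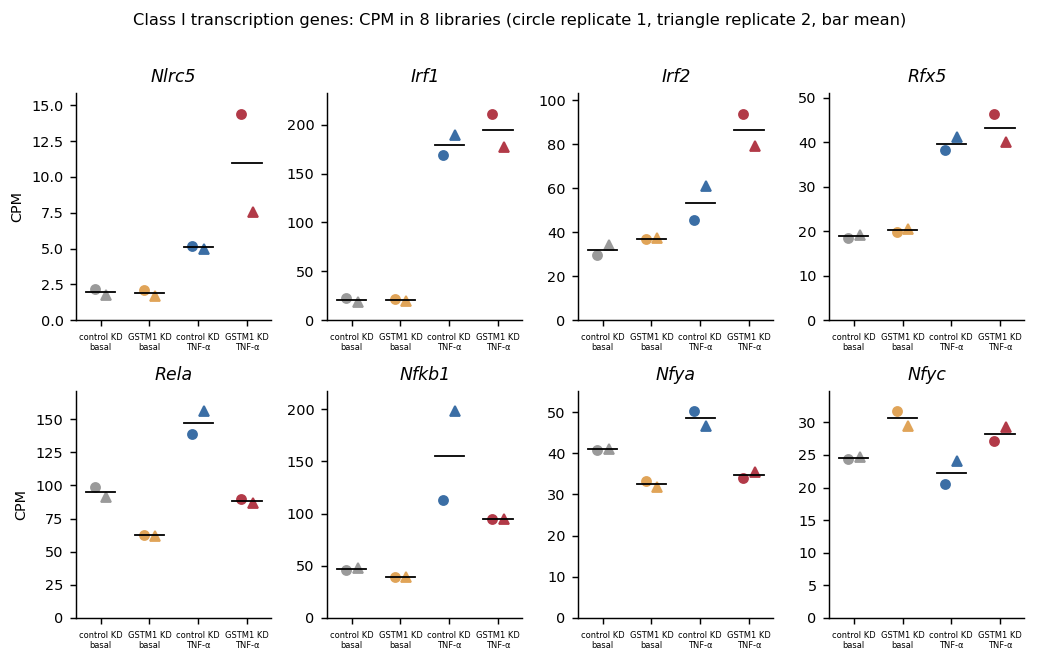
CPM (y axis, linear from 0) of 8 genes of the class I transcription list in the 8 libraries, by group, with circles for replicate 1, triangles for replicate 2 and a bar at the mean. After TNF-α, Irf2 (93.9 and 79.1 CPM) is higher and Rela and Nfya lower in GSTM1 KD than in control KD.

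MHC class II genes, which present peptides to CD4 T cells and share the X and Y promoter boxes with class I, had low levels. H2-DMa, a peptide-loading subunit, had between 27 and 204 counts in the 8 libraries, H2-DMb1 between 22 and 65, and Ciita, the class II transactivator, between 7 and 21 in basal libraries, with 30 and 63 against 101 and 125 after TNF-α in the control KD and GSTM1 KD arms. Cd74, the invariant chain, had between 5 and 11 counts in basal libraries. After TNF-α there were 25 and 22 in the control KD libraries, against 82 and 60 with GSTM1 KD. After TNF-α, edgeR called 3 of 7 class II genes tested higher in GSTM1 KD, where 7.26% of all genes were, namely Cd74 (log2 1.57 ± 0.31), H2-Aa (log2 2.66 ± 0.50) and H2-Ab1 (log2 1.98 ± 0.34), with edgeR adjusted p of 0.0301, 0.0276 and 0.0242. H2-Aa had 4 and 3 counts in the control KD libraries and 30 and 16 in GSTM1 KD, and passed the count filter only through GSTM1 KD, so its call was favoured by the filter and the count of 3 is not read as a result. In both TNF-α responses Cd74 passed it only through stimulated libraries. Ciita and Cd74 rose with TNF-α in GSTM1 KD by 3.80 each on the log2 scale, and Cd74 in control KD by 2.00. Ciita had a fitted value of 2.10 in control KD without a call, and the difference between the arms was not tested. The class I-like genes outside the complex did not rise with the members, since their TNF-α responses ranged from -0.23 to 0.21 in control KD and from -0.28 to 0.57 in GSTM1 KD. Of 5 tested, Procr, a receptor for protein C, was lower in GSTM1 KD basally (log2 -1.57 ± 0.31, edgeR adjusted p 0.0386), and Mr1, which presents vitamin B metabolites, after TNF-α (log2 -1.17 ± 0.28, edgeR adjusted p 0.0445), where 5.62% and 8.92% of all genes were lower.

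Among 9965 genes with a mean of at least 10 CPM, those whose log2 CPM over the 8 libraries was most like the mean of the members were Parp14, Zbtb5, Dtx3l, Gbp9 and Ifi47, with Pearson correlations between 0.993 and 0.996. That mean includes H2-Q6, which was put forward for its induction, and likeness to a mean without it was not examined. The 8 points share the TNF-α treatment, so this is a description of likeness. The mean log2 CPM of the members was 4.04 and 4.29 in control KD against 4.06 and 3.99 in GSTM1 KD basal cells, and 5.08 and 5.29 against 5.77 and 5.36 after TNF-α. Parp14, an ADP-ribosyltransferase, followed it from 24.6 and 30.2 CPM and from 22.4 and 21.1 CPM in basal cells to 157 and 193 CPM in control KD and 464 and 284 CPM in GSTM1 KD. Ifi47, an interferon-inducible GTPase, went from between 1.2 and 2.54 CPM to 13.8 and 19.4 CPM in control KD and 66.7 and 37.3 CPM in GSTM1 KD.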

How the data were processed

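RNA-seq of 8 libraries was analysed. Per the submitters' processing notes, STAR 2.5.4b and RSEM 1.3.0 were used on GRCm38 (mm10). The annotation release and strand setting are not given in the sources used here. The deposited tables held expected counts per gene, which RSEM need not give as whole numbers, and TPM values, both made by the authors. The other column used was the deposited effective length, for 1 alternative. Expected counts were rounded and tested with edgeR 4.0.16 in R 4.3.3 (quasi-likelihood test, TMM, filterByExpr, Benjamini-Hochberg threshold 0.05). Each knockdown comparison used the 4 libraries of its state, and TNF-α responses were taken from all 8. SE was the absolute log2 fold change divided by the square root of F. The script was tested on simulated data. CPM used TMM-scaled totals, with 0.5 added before taking log2 for likeness. H2-Q6 was left out of calls and tests.

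The members and lists were chosen with earlier results of these data known. All 10 members and the 12 genes of the class I transcription list are named, with any gene past the threshold from the lists of other class I, class I-like, peptide supply and class II genes, and the 5 non-members most like the members' mean. Marker genes past the threshold between knockdowns or with TNF-α are named too, chosen after their values were seen. The result of 1 further gene is not reported here. Alternatives were DESeq2 1.42.0, other scalings and filters, effective length offsets, the replicate number as a block, other sets of libraries, summed paralogs and leaving out each library. Totals of 17349676 to 34434633 set the precision, with 3 counts, or 0.0871 to 0.173 CPM, as the limit that a count of 0 allows, for counting error only. Nothing in the labels says what a replicate number marks, so the p-values measure the spread between these samples.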

Additional observations from a re-analysis of the deposited data

Results flagged for a closer look

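H2-Q6 was flagged because every GSTM1 KD library lay below every control KD library in the basal state (log2 -1.41) and above every control KD library after TNF-α (log2 0.56). The difference between these 2 contrasts was not tested, since H2-Q6 was put forward for its induction.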

How the results depend on the processing

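Each alternative was run on every member. The number of the 9 members called between knockdowns in the basal state, 0 in the edgeR fit, was 1 with DESeq2, 1 with no filter on low counts and 1 with the replicate block, H2-Q4 in each case. After TNF-α it went from 0 to 2 with DESeq2, 2 with no filter, 2 with the replicate block, 1 with scaling by library size only and 1 in the fit of all 8 libraries. In control KD the 4 calls after TNF-α fell to 1 when only the 4 libraries of that knockdown were fitted, and the 5 of GSTM1 KD rose to 8 with no filter. With 1 library left out, calls ranged from 0 to 3 basally, from 0 to 2 between knockdowns after TNF-α, from 1 to 4 for TNF-α in control KD and from 1 to 6 in GSTM1 KD, with the lone library of a group assumed to vary like the others. The number of all genes called also changed between these fits, so no result is read from these ranges of member calls. With 1 library left out, the median difference of the responses ranged from 0.23 to 0.77. B2m in the basal state was -0.01 with no filter. Under omission of 1 library, values on both sides of 0 were given between knockdowns in the basal state by H2-K1 (-0.03 to 0.36), H2-T22 (-0.02 to 0.09), H2-T23 (-0.04 to 0.97), H2-T24 (-0.43 to 0.46) and B2m (-0.08 to 0.10). They were given after TNF-α by H2-D1 (-0.05 to 0.14), H2-Q4 (-0.13 to 0.32) and H2-Q7 (-0.19 to 0.61), and for TNF-α in control KD by H2-T24 (-0.08 to 0.82). The cause was not tested.

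Nothing in the labels says that a replicate number marks a shared culture or day. Deviations of same-numbered libraries correlated between 0.220 and 0.687 over the 6 pairs of groups, and with 2 numbers this does not establish pairing. With the replicate block, genes called went from 1524 to 4712 basally, from 2360 to 4303 after TNF-α, from 403 to 988 for TNF-α in control KD and from 406 to 808 in GSTM1 KD. Over all genes, DESeq2 called 2492 basally, 2824 between knockdowns after TNF-α and 742 and 630 for TNF-α in the control KD and GSTM1 KD arms. The fit with no filter called 3957, 4540, 1255 and 1050 for the 4 comparisons in that order. The fit of all 8 libraries called 2762 basally and 3116 after TNF-α, that scaled by library size only called 2514 after TNF-α, and fits of only the 4 libraries of a knockdown called 72 and 691. With 1 library left out, the counts started from 1 basally, 0 between knockdowns after TNF-α, 180 and 74 for TNF-α in the 2 arms, and reached 5256 basally. H2-M3, H2-T24, H2-Q6 and H2-Q7 have the fewest counts. In the 4 comparisons their SE ran from 0.26 to 0.42, which limits what could be detected. H2-T23, with more counts, had an SE of up to 0.34.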
